A study of Saccharomyces cerevisiae with 12 samples.

Results

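The enzymes, transporters and regulators by which budding yeast, Saccharomyces cerevisiae, takes up sulfate and turns it into methionine, cysteine and S-adenosylmethionine (AdoMet) were followed as a set of 36 genes among 5970 transcripts. The 36 were listed as a pathway by gene name, with earlier results of these data known. Each was found in the deposited tables by matching its transcript identifier to its RefSeq gene name. The libraries came from a mutant, edc3∆lsm4∆C, and from the wild type (WT), BY4741. The mutant lacks EDC3 and the Q/N-rich C-terminal domain of Lsm4, proteins of the cytoplasmic mRNA condensates called P-bodies. The 6 groups of 2 libraries each were the mutant grown with 100 mM sodium perchlorate (NaClO4), the WT grown with it, WT cells regrown after a shock wave of 5.6 Mach, the untreated mutant, the untreated WT and the unshocked WT. All cultures grew at 30 °C in medium without uracil to an OD600 of 0.4 to 0.5, and perchlorate was present throughout growth. BY4741 is known to lack MET17, a gene of the pathway, while the mutant expressed it, so the effects of the condensate mutations and of MET17 on the pathway cannot be told apart. The labels give BY4741 for the mutant too, but say nothing of plasmids, of how many clones were used or of whether replicates were separate cultures, so a p-value here covers only how far the libraries of a group lie apart, which may be technical variation. In bulk cultures, fewer expressing cells and less RNA per cell cannot be told apart.

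Sulfate enters the cell through the permeases Sul1 and Sul2, is activated with ATP to adenylyl sulfate and phosphoadenylyl sulfate, and is reduced to sulfite and then to sulfide. Met17 joins sulfide to O-acetylhomoserine, which derives from aspartate, to give homocysteine, the precursor of methionine and, by transsulfuration, of cysteine. The genes are induced by the activator Met4, which reaches DNA through Cbf1, Met28, Met31 and Met32 and is restrained by the ubiquitin ligase that contains Met30. Met22, which removes the by-product phosphoadenosine phosphate, is known as a target of sodium and lithium toxicity.

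The DNA upstream of the genes was examined first, since the induction of the pathway is known to act there. In the window of 250 bases before to 50 bases after the coding start, CACGTG, the core bound by Cbf1, was found in 9 of 36 members (25.0%) and in 2.93% of all 5969 windows. AAACTGTGG, bound by Met31 and Met32, was found in 6 members (16.7%) and 0.436% of all windows, and its core CTGTGG, counted whether or not it lay within AAACTGTGG, in 10 members (27.8%) and 6.87%. TGACTC, the core bound by Gcn4, was found in 9 members (25.0%) and 8.06% of all windows. Both strands were searched, and a match is a run of letters, not a measured binding site. In the 500 bases before the start, a window chosen after the data were seen, 22 members (61.1%) held CACGTG and 12 (33.3%) AAACTGTGG, against 6.20% and 0.854% of all genes. The windows of MMP1 and MHT1, divergent neighbours, overlap and hold the same match.

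The following stretches of 100 bases begin 10 bases before the first CACGTG of each gene and are shown because these members, apart from MET17, had the largest changes in the perchlorate-grown mutant among those with CACGTG or AAACTGTGG in the shorter window. MET17 is shown because its presence separates the strains. The sequences come from the RefSeq reference genome, build R64, are written 5′ to 3′ on the strand of the gene, and carry the Cbf1 core and the Met31 and Met32 motifs, on either strand, in capitals. The build that the authors aligned to is not given in the sources used here.
MET10: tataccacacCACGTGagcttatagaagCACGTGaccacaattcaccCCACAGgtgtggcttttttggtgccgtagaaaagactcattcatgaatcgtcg
MET14: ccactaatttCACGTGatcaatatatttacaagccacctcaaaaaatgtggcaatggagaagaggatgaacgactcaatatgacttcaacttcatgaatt
MET28: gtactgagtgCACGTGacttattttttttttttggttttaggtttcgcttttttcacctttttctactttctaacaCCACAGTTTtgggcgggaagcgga
MET16: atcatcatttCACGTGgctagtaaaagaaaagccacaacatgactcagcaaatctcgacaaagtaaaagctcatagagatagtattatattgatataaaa
MET30: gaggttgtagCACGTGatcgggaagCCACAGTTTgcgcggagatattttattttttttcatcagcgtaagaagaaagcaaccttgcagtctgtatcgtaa
MET17: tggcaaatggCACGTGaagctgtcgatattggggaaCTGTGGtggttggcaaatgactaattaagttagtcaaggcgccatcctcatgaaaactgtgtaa
MET10 had the CACGTG core in 2 places and a CTGTGG core read on the other strand. MET28 and MET30 each had CACGTG and AAACTGTGG within the same stretch. In MET17 both cores lay beyond the shorter window, beginning 300 and 274 bases before the coding start. On R64 the stretches lie at chrVI:213053-213152 (plus strand, MET10), chrXI:439524-439623 (minus strand, MET14), chrIX:384249-384348 (minus strand, MET28), chrXVI:877721-877820 (minus strand, MET16), chrIX:268464-268563 (plus strand, MET30), chrXII:732232-732331 (plus strand, MET17), all upstream of the coding sequence and outside its exon.

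Each library held 14110933 to 18363356 reads on transcripts, and the members took 1.68 and 1.76% of them in the perchlorate-grown mutant, 1.26 and 1.34% in perchlorate-grown WT, 0.835 and 0.859% in the untreated mutant and 0.996 and 1.13% in untreated WT. Without MET17 the shares in the mutant were 1.49 and 1.55% in perchlorate and 0.778 and 0.790% untreated. For EDC3, deleted in the mutant, the mutant libraries held 1 to 4 reads and the WT libraries 745 to 1365. The strains also differed in mating type markers: a-cell genes summed to 29.9 to 36.3 RPM (reads scaled to a common library total) in the mutant and 564 to 2585 in the WT, and alpha-cell genes to 620 to 2268 in the mutant and 37.4 to 76.5 in the WT. Within the alpha-cell list SAG1 went the other way in perchlorate, with 435 and 400 reads in the mutant, against 647 and 522 in the WT. Among the other genes listed as strain markers, the untreated mutant held 6319 and 5366 reads of LEU2, against 0 and 0 in untreated WT. It held 8489 and 8675 of URA3, against 2468 and 2071, and 332 and 292 of TRP1, against 1157 and 1011. HIS3 had 1454 and 1225, against 954 and 914, and LYS2 3779 and 3431, against 3333 and 3054. Differences between the strains beyond the labelled mutations therefore cannot be told apart from the mutations. Levels are given as RPKM, the RPM value divided by the coding length in kilobases. The median member had 136 RPKM in the perchlorate-grown mutant, 78.9 in perchlorate-grown WT, 29.8 in the untreated mutant and 32.9 in untreated WT. SAM1, SAM2, MET6, CYS3, CYS4, HOM2 and HOM6 were each above 400 RPKM in all 6 groups. By contrast, JLP1 averaged 27.7 RPKM in the perchlorate-grown mutant and 2.87 to 7.54 in the other groups.

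**Figure D1:**
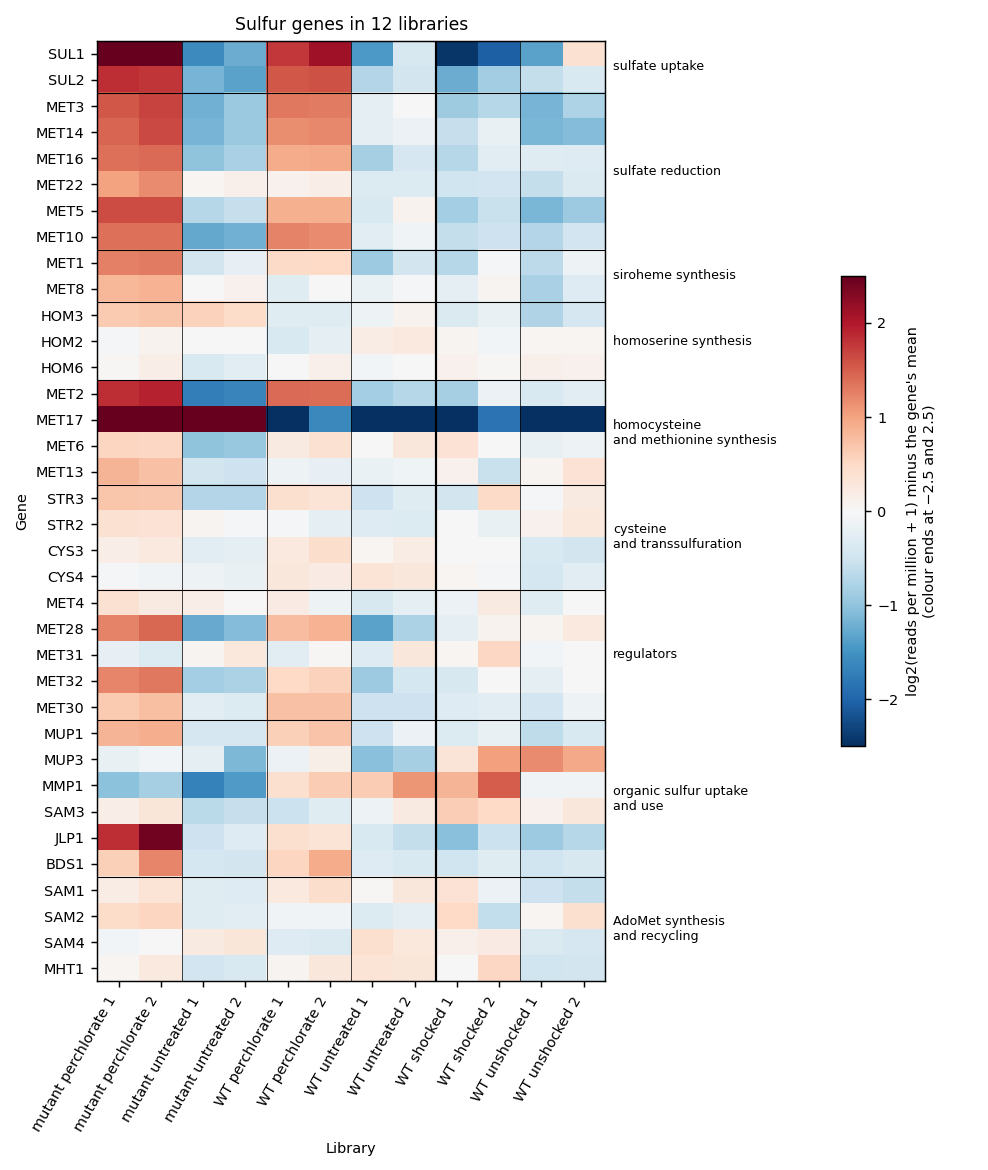
Levels of the 36 genes (rows, by role) in the 12 libraries (columns), as log2(RPM + 1) minus the gene's mean over all libraries, so that red is above and blue below that mean. SUL1, SUL2, MET3, MET14, MET16, MET5, MET10 and MET2 are red in the perchlorate-grown libraries of both strains and blue in the untreated mutant, and MET17 splits the mutant from the WT.

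MET17 (YLR303W), the O-acetylhomoserine sulfhydrylase, separated the strains. The mutant had 27802 and 30889 reads of MET17 in perchlorate and 8873 and 9926 untreated. The WT had 0 and 51 reads in perchlorate, 2 and 52 after the shock, 0 and 0 untreated and 0 and 10 unshocked. The lower untreated mutant library was therefore at least 2695-fold above the untreated WT, against a limit of 3 reads per library that covers counting error only. In perchlorate the mutant-to-WT ratio of reads, pooled over the libraries of each group, was 1217 (95% exact counting interval 925 to 1634). That interval covers counting error only and not the spread between the WT libraries. The ratio rests on the 51 reads of WT perchlorate replicate 2. The WT libraries with MET17 reads also held reads of LEU2, a gene BY4741 is known to lack too: perchlorate replicate 2 had 23, shocked replicates 1 and 2 had 5 and 23, and unshocked replicate 2 had 20, whereas the remaining WT libraries had 0. Their reads of MF(ALPHA)1, the alpha pheromone gene, were 60, 44, 111 and 40, against 4 to 12 in the remaining WT libraries. The part of these reads in the other results was not tested. In the mutant MET17 was higher in perchlorate by 1.55 ± 0.13 on the log2 scale (SE; adjusted p = 3.02e-05). MET17 overlaps YLR302C on the other strand by 12 bases.

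Growth in perchlorate was compared with untreated growth within each strain, to ask how the pathway stood in cells growing in the salt. Tests used limma on log2 of the deposited normalized count plus 1, with p-values adjusted over all transcripts tested by the Benjamini-Hochberg method and called under 0.05. All 36 members passed the minimum mean of 10 normalized counts in every comparison. In the mutant 28 members rose and 2 fell (background: 33.7% of 5673 transcripts called, 18% higher and 15.7% lower), with a median log2 fold change of 0.94 without MET17 beside 1.87e-05 over all transcripts. In the WT 17 rose and 3 fell (background: 26.5% of 5667 called, 14.3% higher and 12.1% lower), with a median of 0.36 without MET17 beside 0.0010 over all. Of the 36, 16 were called higher in both strains, 11 higher in the mutant with no call in the WT, and MUP3 higher in the WT with no call in the mutant. CYS4, HOM3, MET4 and STR2 were called in neither. Scaling to total reads in place of the deposited size factors moved the median of all transcripts to 0.091 in the mutant and 0.126 in the WT, and put the share of called transcripts that were higher at 71.7% in the mutant, beside 53.4% with the deposited scaling, and at 72.6% in the WT, beside 54.1%. The members then counted 30 higher and 2 lower in the mutant, and 18 and 2 in the WT.

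The genes of both sulfate permeases rose in both strains. SUL1 (YBR294W), a high-affinity sulfate permease, had 1615 and 2328 normalized counts in the perchlorate-grown mutant, against 65.1 and 85.6 in the untreated mutant. Its log2 fold change was 4.68 ± 0.19 (SE, n = 2 each; adjusted p = 5.04e-07). In the WT SUL1 had 738 and 1002 counts in perchlorate, against 75.1 and 176 untreated, a log2 fold change of 2.89 ± 0.33 (adjusted p = 0.000231). The untreated WT libraries themselves differed by more than 2-fold in SUL1. SUL2 (YLR092W), the other permease, had 3549 and 3601 counts in the perchlorate-grown mutant, against 469.5 and 406 untreated, which is 3.03 ± 0.10 on the log2 scale (adjusted p = 2.09e-07). In the WT it had 2880.1 and 3155, against 647 and 809, or 2.06 ± 0.15 (adjusted p = 1.47e-05).

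The genes of sulfate activation and reduction rose together, all 6 in the mutant and 5 of 6 in the WT. MET3 (YJR010W), the ATP sulfurylase that makes adenylyl sulfate, had 6674 and 7748 normalized counts in the perchlorate-grown mutant, against 1072 and 1275 untreated, and 5684 and 5929 in perchlorate-grown WT, against 2148 and 2601 untreated. Its log2 fold changes were 2.62 ± 0.12 in the mutant and 1.30 ± 0.14 in the WT (adjusted p = 7.24e-07 and 0.000185). MET14 (YKL001C), the kinase of the next step, had 3878 and 4709.6 counts in the perchlorate-grown mutant, against 689 and 797 untreated, and 3168 and 3499 in perchlorate-grown WT, against 1312 and 1457 untreated. MET14 rose by 2.53 ± 0.12 in the mutant and 1.27 ± 0.14 in the WT. MET16 (YPR167C), the reductase that yields sulfite, had 955 and 1038 counts in the perchlorate-grown mutant, against 191 and 218 untreated, and 696 and 753 in perchlorate-grown WT, against 219 and 303 untreated. It rose by 2.28 ± 0.12 in the mutant and 1.49 ± 0.18 in the WT. Sulfite reductase has a catalytic pair of subunits. MET10 (YFR030W), its alpha subunit, had 7265 and 7712 counts in the perchlorate-grown mutant, against 1265 and 1302 untreated, and 6626 and 6785 in perchlorate-grown WT, against 2593 and 2992 untreated, which gave 2.54 ± 0.089 and 1.27 ± 0.13. MET5 (YJR137C), its beta subunit, gave 2.19 ± 0.093 and 0.92 ± 0.17. MET22 (YOL064C), the nucleotidase, rose by 0.93 ± 0.11 in the mutant (adjusted p = 0.000234) and stood at 0.36 ± 0.14 in the WT, which did not pass (adjusted p = 0.0701). Siroheme, the cofactor of sulfite reductase, is made by Met1 and Met8. MET1 (YKR069W), the methyltransferase, rose by 1.54 ± 0.11 in the mutant and 1.09 ± 0.18 in the WT, and MET8 (YBR213W), the enzyme that finishes the ring, rose by 0.76 ± 0.13 in the mutant and was at -0.17 ± 0.21 in the WT (adjusted p = 0.579).

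Homoserine, the carbon skeleton of homocysteine, comes from aspartate through Hom3, Hom2 and Hom6. Of their genes HOM6 rose in the mutant and HOM2 fell in the WT. HOM3 (YER052C), the aspartate kinase, had log2 fold changes of 0.062 ± 0.096 in the mutant and -0.41 ± 0.14 in the WT, and neither passed (adjusted p = 0.648 and 0.0567). HOM2 (YDR158W), the semialdehyde dehydrogenase, fell by 0.65 ± 0.14 in the WT (adjusted p = 0.00937; 0.0807 without WT perchlorate replicate 1) and stood at -0.075 ± 0.10 in the mutant. HOM6 (YJR139C), the homoserine dehydrogenase, rose by 0.32 ± 0.10 in the mutant (adjusted p = 0.0408), a call lost without either untreated library (0.152 and 0.0541) or perchlorate replicate 2 (0.143), and stood at -0.023 ± 0.14 in the WT. The step after homoserine differed. MET2 (YNL277W), the homoserine acetyltransferase, had 2244 and 2492 normalized counts in the perchlorate-grown mutant, against 192 and 202 untreated, a log2 fold change of 3.58 ± 0.10 (adjusted p = 1.17e-07). In the WT it had 1658 and 1753, against 368 and 424, or 2.11 ± 0.14 (adjusted p = 1.04e-05). The replicates of MET2 lay close together in each of the 4 groups.

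At the methionine synthase step the calls differed between the strains. MET6 (YER091C), the cobalamin-independent methionine synthase, had 44671 and 46348 normalized counts in the perchlorate-grown mutant, against 16843 and 17254 untreated, or 1.42 ± 0.10 on the log2 scale (adjusted p = 1.24e-05). In the WT it had 36194 and 42706 counts in perchlorate, against 33811 and 42602 untreated. These WT groups overlapped, and the value of 0.051 ± 0.16 did not pass (adjusted p = 0.844). MET13 (YGL125W), the reductase that supplies methyltetrahydrofolate to the synthase, rose by 1.19 ± 0.09 in the mutant and stood at -0.16 ± 0.13 in the WT (adjusted p = 0.384). In transsulfuration, STR3 (YGL184C), the cystathionine beta-lyase that leads from cysteine to methionine, rose by 1.37 ± 0.10 in the mutant and 0.68 ± 0.15 in the WT (adjusted p = 0.0108; 0.0934 without WT perchlorate replicate 1, 0.0942 without replicate 2). STR2 (YJR130C), the cystathionine gamma-synthase of the same direction, stood at 0.28 ± 0.10 and 0.075 ± 0.14 and passed in neither. In the direction of cysteine, CYS3 (YAL012W), the gamma-lyase, rose by 0.36 ± 0.099 in the mutant (adjusted p = 0.022; 0.0762 and 0.0744 without untreated replicate 1 and 2) and stood at 0.11 ± 0.15 in the WT. CYS4 (YGR155W), the cystathionine beta-synthase, stood at 0.0046 ± 0.093 and -0.20 ± 0.13.

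Among the regulators 3 of 5 rose in each strain, and they were the same genes. MET28 (YIR017C), the leucine zipper partner of Met4, had 894 and 1083 normalized counts in the perchlorate-grown mutant, against 162 and 179.6 untreated, and 639 and 730.1 in perchlorate-grown WT, against 152 and 238 untreated. Its log2 fold changes were 2.52 ± 0.13 and 1.84 ± 0.21 (adjusted p = 1.68e-06 and 0.00026). MET32 (YDR253C), a zinc finger DNA-binding protein, rose by 2.24 ± 0.15 in the mutant and 1.26 ± 0.24 in the WT, and was among the lowest members, at 55.8 to 86.6 normalized counts in untreated libraries. MET30 (YIL046W), the F-box protein that recognizes Met4, rose by 0.94 ± 0.10 and 1.14 ± 0.13. MET31 (YPL038W), the relative of MET32, fell by 0.56 ± 0.14 in the mutant (adjusted p = 0.0134), with 162 and 156 counts in perchlorate, against 220.3 and 251 untreated, and stood at -0.23 ± 0.25 in the WT. MET4 (YNL103W), the activator itself, stood at 0.12 ± 0.099 and 0.23 ± 0.15 and passed in neither (adjusted p = 0.366 and 0.281). CBF1, which is not among the 36, had no call in either strain (0.19 ± 0.12 in the mutant and -0.22 ± 0.18 in the WT), so of the factors that bring Met4 to DNA only MET28 and MET32 rose.

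Genes for taking up and breaking down organic sulfur rose in most cases, 5 of 6 in the mutant and 4 of 6 in the WT. JLP1 (YLL057C), a dioxygenase that releases sulfite from sulfonates, had 385 and 613 normalized counts in the perchlorate-grown mutant, against 71.1 and 81.3 untreated, and 134 and 137 in perchlorate-grown WT, against 80.2 and 68.4 untreated. It rose by 2.66 ± 0.21 in the mutant and 0.86 ± 0.21 in the WT, and the WT call was lost without either perchlorate library (adjusted p = 0.124 and 0.104). BDS1 (YOL164W), a sulfatase, rose by 1.30 ± 0.20 and 0.98 ± 0.18 (WT adjusted p = 0.0606 without perchlorate replicate 2). MUP1 (YGR055W), the high-affinity methionine permease, rose by 1.21 ± 0.098 and 0.87 ± 0.16. MUP3 (YHL036W), a low-affinity methionine permease, rose by 0.84 ± 0.18 in the WT (adjusted p = 0.00953; 0.120 without perchlorate replicate 2) and stood at 0.48 ± 0.25 in the mutant, whose untreated libraries had 501 and 259.8 counts and overlapped those in perchlorate (472 and 537). SAM3 (YPL274W), the AdoMet permease, moved in opposite directions: it rose by 0.78 ± 0.10 in the mutant, with 4179 and 4849.6 counts in perchlorate, against 2556 and 2687 untreated. In the WT SAM3 fell by 0.60 ± 0.17, with 2569 and 3211 counts, against 3794 and 4973 (adjusted p = 0.0285). That fall was lost with total read scaling (0.0652), without untreated replicate 2 (0.0595) and without perchlorate replicate 1 (0.227). MMP1 (YLL061W), the S-methylmethionine permease, rose by 0.58 ± 0.16 in the mutant (adjusted p = 0.0216; 0.118 without perchlorate replicate 2) and stood at -0.48 ± 0.19 in the WT (adjusted p = 0.0904).

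AdoMet, the methyl donor made from methionine, is synthesized by Sam1 and Sam2, and homocysteine is remethylated from AdoMet by Sam4 and from S-methylmethionine by Mht1. In the mutant SAM1 (YLR180W) rose by 0.49 ± 0.11, SAM2 (YDR502C) by 0.69 ± 0.10 and MHT1 (YLL062C) by 0.51 ± 0.14, the last with an adjusted p of 0.0214 that was 0.151 without perchlorate replicate 2. In the WT SAM1, SAM2 and MHT1 stood at 0.06 ± 0.16, 0.071 ± 0.14 and -0.27 ± 0.17 and did not pass. SAM4 (YPL273W) was the only member to fall in both strains, with 2095 and 2288 normalized counts in the perchlorate-grown mutant, against 2823 and 2948 untreated, and 1745 and 1813 in perchlorate-grown WT, against 3204 and 3029 untreated. It fell by 0.40 ± 0.09 in the mutant and 0.81 ± 0.13 in the WT (adjusted p = 0.0114 and 0.00206). SAM1 and SAM2 are 83.9% identical over 97.4% of SAM2, and 32.0% of SAM4 is 99.4% identical to YMR321C, so reads of SAM4 could be shared and its values are uncertain.

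**Figure D2:**
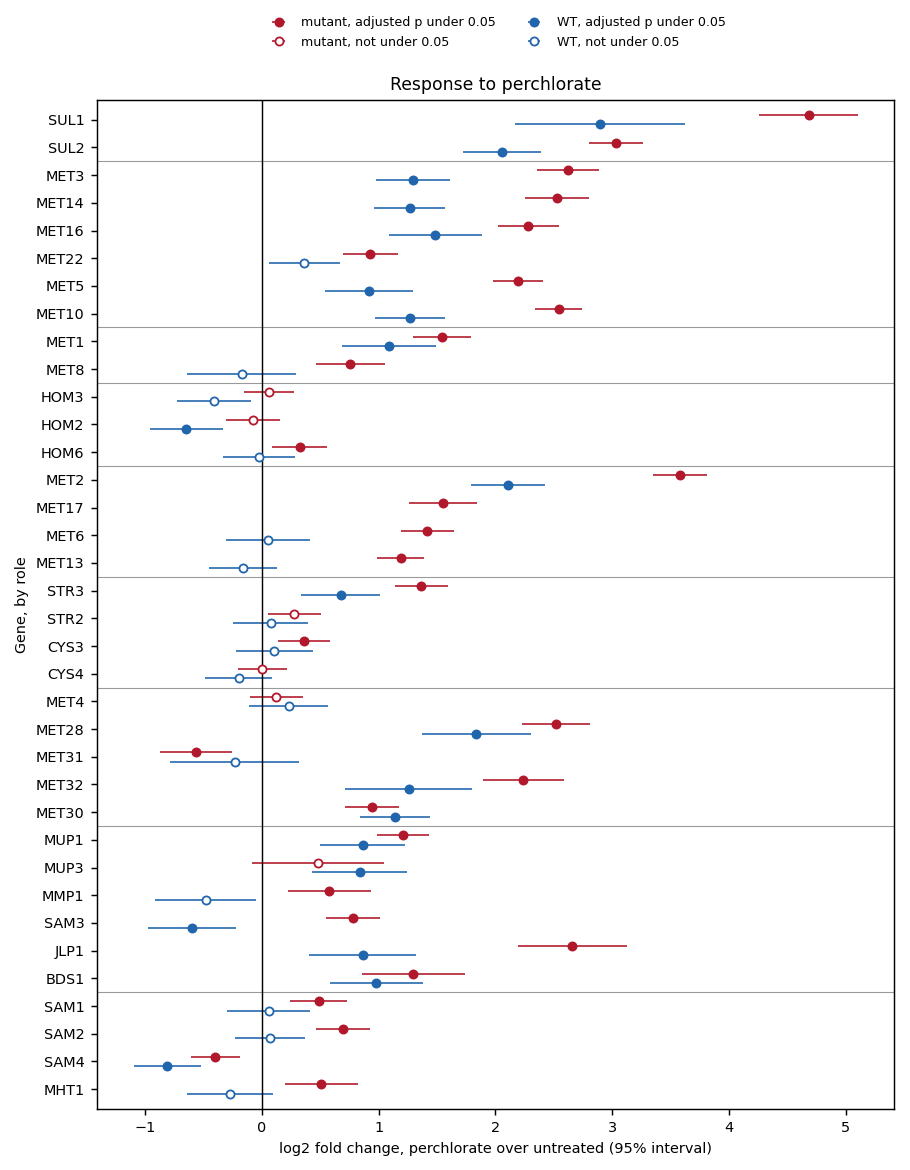
log2 fold change of each gene in perchlorate over untreated growth (x axis, with 95% interval) in the mutant (red) and the WT (blue), 2 libraries per group; filled points had an adjusted p under 0.05. MET17 is shown for the mutant alone because the WT lacks it. The points of SUL1, SUL2, MET2, MET3, MET14 and MET10 lie to the right of 1 in both strains, and SAM3 lies on opposite sides of 0.

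Motif matches were set beside these calls as a description. Of the 26 members with CACGTG or AAACTGTGG in the 500 bases before the start, 22 rose in the mutant and 0 fell, and the other 10 had 6 rises and 2 falls, with medians of 1.08 and 0.98 on the log2 scale. In the WT, without MET17, 13 of 25 with a match rose and 0 fell, while 4 of 10 without a match rose and 3 fell, with medians of 0.84 and -0.04. With the shorter window the order of the medians turned round in both strains. The medians were then 0.76 for 13 members with a match and 1.30 for 23 without in the mutant, and 0.36 for 13 with a match and 0.45 for 22 without in the WT. SUL1, with the largest change in both strains, had neither motif in the 500 bases. It did hold the shorter CTGTGG core, beginning 413 bases before the start. That core was in 13.2% of all windows of 500 bases. Of the other members without a match, MET13, STR3, STR2, SAM3, JLP1 and BDS1 also held that core, and HOM2, MET31 and SAM4 did not.

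The untreated strains were compared next, to ask whether the pathway differed before any treatment. Of the members 16 were lower in the mutant and 1, MET17, was higher (background: 22.5% of 5668 transcripts called, 11% higher and 11.6% lower), and the median without MET17 was -0.45 beside 0.0099 over all transcripts. MMP1, the S-methylmethionine permease gene, differed most among the 16 that were lower, with 131 and 159 normalized counts in the mutant, against 774 and 1124 in the WT, with a log2 ratio of -2.68 ± 0.21 (SE, n = 2 each; adjusted p = 0.000541). MET6, the methionine synthase gene, had 15313 and 15661 counts in the mutant, against 33291 and 42379 in the WT, or -1.28 ± 0.13 (adjusted p = 0.00123). MET10, the sulfite reductase gene, had 1151 and 1182, against 2553 and 2977, or -1.24 ± 0.12 (adjusted p = 0.00109). The groups did not overlap for the genes called, nor for MET16, MET22, HOM3, STR3 and STR2, which had no call. The share of all transcripts without overlap was not counted, so lack of overlap adds nothing to the calls. MET3 had 975 and 1157 counts in the mutant, against 2115 and 2588 in the WT (-1.14 ± 0.15). MET14, of the next step in sulfate activation, had 626 and 724, against 1292 and 1449 (-1.02 ± 0.13), and MET2, the acetyltransferase gene, 175 and 183, against 363 and 422 (-1.12 ± 0.15). MHT1 had 186 and 196 counts in the mutant, against 365 and 371 in the WT (-0.94 ± 0.14), and SAM3 2324 and 2439, against 3736 and 4947 (-0.85 ± 0.15). The rest of the 16 were SUL2 at -0.85 ± 0.16, MET5 at -0.67 ± 0.18, SAM1 at -0.64 ± 0.12, CYS4 at -0.64 ± 0.084, CYS3 at -0.53 ± 0.098, MET13 at -0.52 ± 0.11, HOM6 at -0.45 ± 0.096 and HOM2 at -0.38 ± 0.091. The regulators MET4, MET28, MET30, MET31 and MET32 had no call, with values from -0.34 to 0.24. CBF1, outside the 36, was lower in the mutant both untreated, with 368 and 358 counts, against 519 and 738 in the WT (-0.77 ± 0.19; adjusted p = 0.0293), and in perchlorate, with 493 and 425, against 605 and 588 (-0.38 ± 0.11; adjusted p = 0.0325). The siroheme genes MET1 and MET8 were at 0.20 ± 0.20 and 0.016 ± 0.17, and SUL1 at -0.74 ± 0.40, also with no call.

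The calls of HOM2, HOM6 and MET13 between the untreated strains were lost without mutant replicate 1 (adjusted p = 0.188, 0.167 and 0.0735) and without mutant replicate 2 (0.227, 0.0710 and 0.144), and HOM2 also without WT replicate 2 (0.0510). MET5 kept its call without WT replicate 2, but at -0.41. Scaling to total reads moved the median of all transcripts to 0.177 and put the share of called transcripts that were higher at 73.9%, beside 48.6%. With it 3 members were higher and 12 lower in the untreated mutant, and HOM2, HOM6, MET13 and MET5 lost their calls (adjusted p = 0.115, 0.0662 and 0.0686 for HOM2, HOM6 and MET5, and just above 0.05 for MET13). MET17 was among the 3. The member median, MET17 included, was -0.41 with all libraries, -0.59 without WT replicate 1 and -0.26 without WT replicate 2. With total read scaling it was -0.25.

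In perchlorate the difference between the strains took another form: 16 members, MET17 included, were higher in the mutant and 2 lower (background: 31.9% of 5704 transcripts called, 16.3% higher and 15.6% lower), with a median without MET17 of 0.17 beside -0.0080 over all. JLP1, the sulfonate dioxygenase gene, had 388 and 615 normalized counts in the mutant, against 149 and 153 in the WT, with a log2 ratio of 1.69 ± 0.20 (SE, n = 2 each; adjusted p = 0.00033). SUL1, the permease gene, had 1627 and 2337 counts in the mutant, against 817 and 1118 in the WT, or 1.03 ± 0.19 (adjusted p = 0.00381). MET8, of siroheme synthesis, had 267 and 291, against 125 and 171, or 0.93 ± 0.17. In each of these genes both mutant libraries lay above both WT libraries. The share of all transcripts with such a separation was not counted, so it adds nothing to the calls. HOM3, the aspartate kinase gene, had 4600.2 and 4959 counts in the mutant, against 2581 and 2793 in the WT (0.83 ± 0.097). MET22, the nucleotidase gene, had 2686 and 3179, against 1570.2 and 1761 (0.81 ± 0.11), and MET13 4004 and 3853, against 2219 and 2257 (0.81 ± 0.09). MET1, MET32 and MET5 followed at 0.64 ± 0.099, 0.62 ± 0.14 and 0.59 ± 0.098. The smaller calls were SAM3 at 0.50 ± 0.13, SAM2 at 0.44 ± 0.12, MET28 at 0.38 ± 0.12, STR2 at 0.36 ± 0.10, MET2 at 0.33 ± 0.098 and MET16 at 0.32 ± 0.10. MMP1 stayed lower, with 218 and 263 counts in the mutant, against 666 and 846 in the WT (-1.65 ± 0.15; adjusted p = 8.45e-05), and CYS4 was lower at -0.46 ± 0.10.

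The calls for MET16, MET2, MET28, SAM2, SAM3, STR2 and CYS4 in perchlorate were lost when certain libraries were left out. Without mutant perchlorate replicate 2 all 7 were lost (adjusted p = 0.0600 to 0.275), leaving 10 members higher and 1 lower, and MET28 then stood at 0.25. Without mutant replicate 1, MET16, STR2, CYS4 and SAM2 were lost (0.0650 to 0.103), leaving 13 and 1. Without WT replicate 1, MET16, MET2, MET28, SAM3 and SAM2 were lost (0.109 to 0.203), leaving 11 and 4, and without WT replicate 2, MET16, MET2, STR2 and SAM2 (0.0501 to 0.118). MET16 was also lost with DESeq2 (0.0735). Scaling to total reads moved the median of all transcripts to 0.146 and put the share of called transcripts that were higher at 76.0%, beside 51.2%. It counted 20 members higher and 2 lower. With it CYS4 stood at -0.30.

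Of the 16 members that were lower in the untreated mutant, 10 had no call between the strains in perchlorate: SUL2, MET3, MET14, MET10, HOM2, HOM6, MET6, CYS3, SAM1 and MHT1. The 95% intervals of the mutant-to-WT difference in perchlorate ran from -0.12 to 0.32 for SUL2, from -0.21 to 0.24 for MET10 and from -0.26 to 0.39 for MET6, on the log2 scale. MET13, MET2, MET5 and SAM3 were higher in the mutant in perchlorate, and CYS4 and MMP1 were lower in both conditions.

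**Figure D3:**
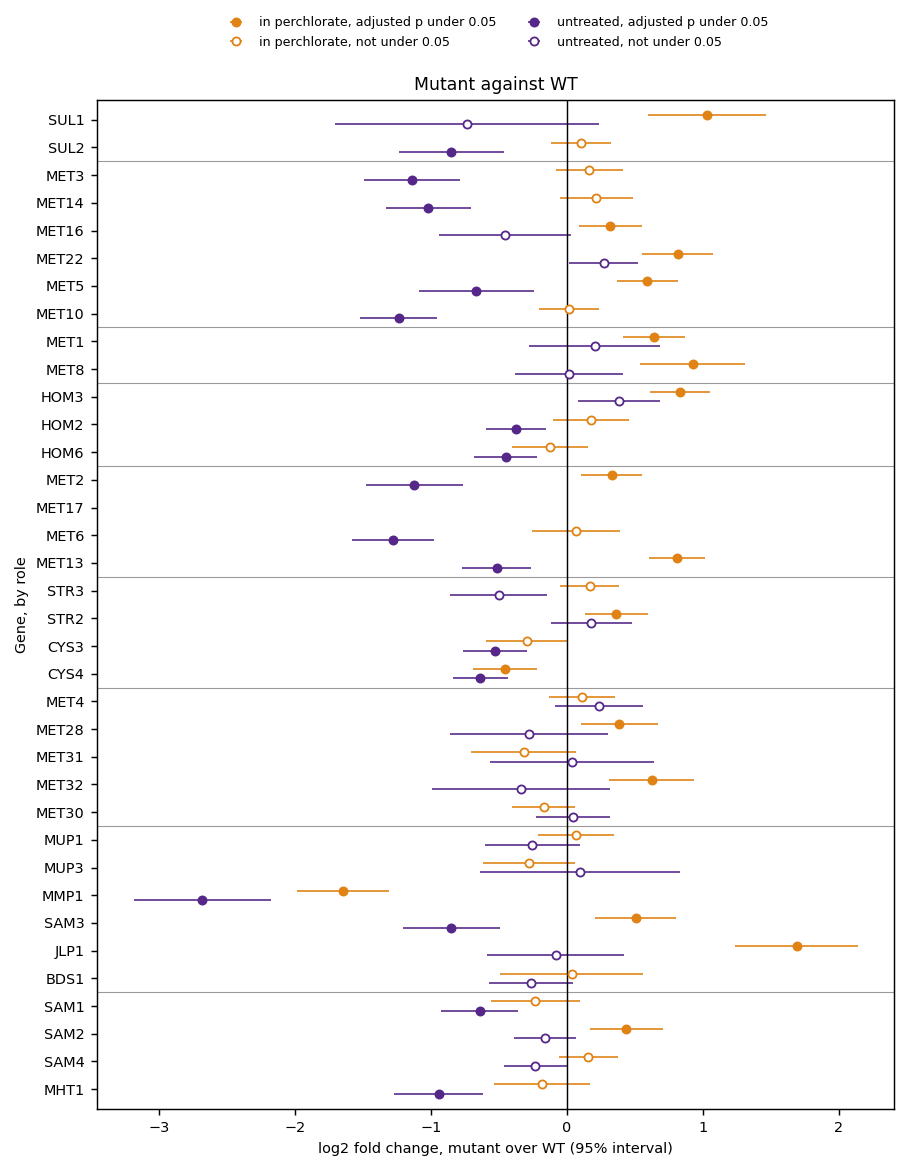
log2 fold change of each gene in the mutant over the WT (x axis, with 95% interval) in perchlorate (orange) and untreated (purple), 2 libraries per group; filled points had an adjusted p under 0.05, and MET17 is left out because the WT lacks it. For SUL2, MET3, MET14, MET10 and MET6 the purple points lie left of 0 and the orange points near 0, while MMP1 lies left of 0 in both.

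Whether the response to perchlorate itself differed between the strains was tested as a difference of the responses (an interaction term) in the 8 libraries concerned, each response taken within its own table. The response was higher in the mutant for 10 members and lower for 0 (background: 2.58% of 5618 transcripts called, 1.89% higher and 0.694% lower). At an unadjusted p under 0.05 0 members were lower, and the other tools run, edgeR and DESeq2, also gave 0 lower. Members higher numbered 10 with edgeR, 14 with DESeq2 and 11 with total read scaling, each count including the 10 called by limma. Those 10 included the sulfate permease SUL2 and the reduction genes MET3, MET14, MET5 and MET10. The others were MET2, MET6 and MET13 of homocysteine and methionine synthesis, the AdoMet permease SAM3 and JLP1. JLP1 had the largest difference, 1.80 ± 0.31 on the log2 scale (SE; adjusted p = 0.0158), and MET13 the smallest adjusted p, 0.00131, with 1.35 ± 0.13. In RPM MET13 stood at 283 and 259 in the perchlorate-grown mutant, 143 and 135 in perchlorate-grown WT, 114 and 109 in the untreated mutant and 140 and 145 in untreated WT. MET10 stood at 518 and 520 in the perchlorate-grown mutant, 471 and 452 in perchlorate-grown WT, 81.6 and 85.5 in the untreated mutant and 166 and 186 in untreated WT. The untreated mutant thus lay below the untreated WT in both genes. In perchlorate both mutant libraries lay above both WT libraries in MET13, which passed the test between the strains. For MET10 the order depended on the scaling: on the normalized counts that were tested the groups overlapped, with 7317 and 7741 in the mutant, against 7332 and 7569.7 in the WT (0.015 ± 0.097). SUL1, with the largest change within each strain, differed by 1.79 ± 0.50, which did not pass (adjusted p = 0.132), and the regulators MET28, MET30, MET31, MET32 and MET4 did not pass either. The interaction shares its untreated and perchlorate libraries with the comparisons above, so its values restate them as a difference.

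The calls of SUL2, MET5, JLP1 and SAM3 were lost when certain libraries were left out, while the differences themselves stayed of like size. SUL2 lost its call without mutant untreated replicate 2, either mutant perchlorate library or either WT perchlorate library (adjusted p = 0.0612 to 0.109, at differences of 0.87 to 1.04). MET5 lost it without mutant untreated replicate 1, either mutant perchlorate library or WT perchlorate replicate 1 (0.0507 to 0.0641, at 1.22 to 1.31). JLP1 lost it without mutant untreated replicate 1, mutant perchlorate replicate 2 or either WT perchlorate library (0.0515 to 0.0631, at 1.46 to 1.81), and SAM3 without mutant perchlorate replicate 2 (0.0574, at 1.27). The count of members was 6 without mutant perchlorate replicate 2 and 20 without WT untreated replicate 1. Without WT perchlorate replicate 1, MET17 was called lower at -4.20, a value set by the 51 reads of the WT library that remained. MET3, MET14, MET10, MET2, MET6 and MET13 kept the call whichever library was left out.

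**Figure D4:**
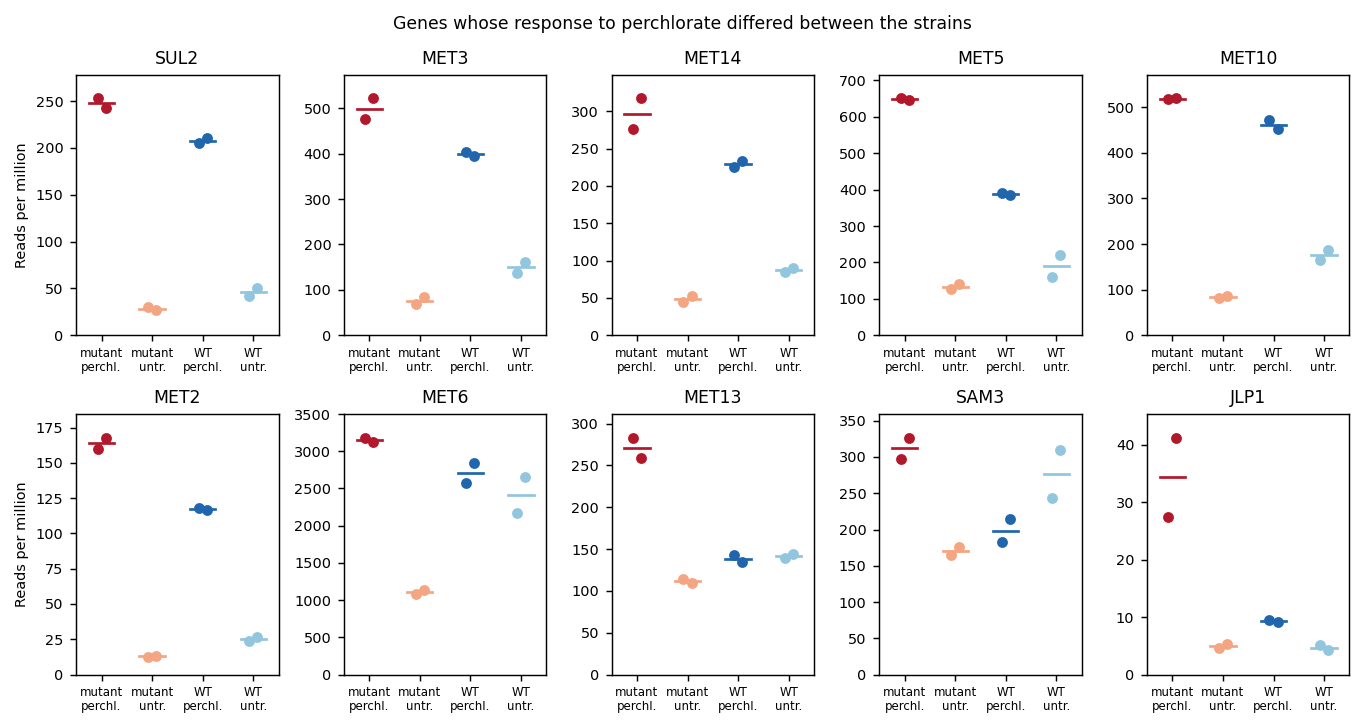
RPM (y axis) of the 10 genes whose response to perchlorate differed between the strains, in the perchlorate-grown and untreated mutant and the perchlorate-grown and untreated WT; points are libraries and bars their mean (n = 2). In MET3, MET14, MET10, MET2 and MET6 the untreated mutant is lowest of the 4 groups.

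In WT cells regrown after the shock wave, compared with unshocked WT to ask what remained of the exposure, 8 members were higher and 2 lower (background: 35.4% of 5671 transcripts called, 18.1% higher and 17.3% lower). A smaller share of the members than of all transcripts was thus called. The median without MET17 was 0.07 beside 0.0035 over all. Both sulfate permeases were lower. SUL1 had 33.6 and 47.8 normalized counts in shocked libraries, against 90.4 and 319.8 in unshocked libraries, with a log2 ratio of -2.06 ± 0.56 (SE, n = 2 each; adjusted p = 0.0319). SUL2 had 504 and 629.8, against 792 and 861, or -0.55 ± 0.13 (adjusted p = 0.0212). The unshocked libraries differed from each other more than 3-fold in SUL1, and without the higher, replicate 2, its value was -1.15 (adjusted p = 0.117). MMP1, the S-methylmethionine permease gene, had 1029.6 and 1586 counts in shocked libraries, against 529.9 and 494 in unshocked libraries, or 1.32 ± 0.20 (adjusted p = 0.00441). MHT1, which uses S-methylmethionine, had 327 and 457, against 226 and 217 (0.80 ± 0.18), and SAM4 2984 and 3027, against 2119.7 and 1903 (0.58 ± 0.088). MET14, the kinase, had 1166 and 1492, against 783 and 771 (0.76 ± 0.13; adjusted p = 0.00686). In each of these genes the groups did not overlap. The share of all transcripts without overlap was not counted, so this adds nothing to the calls.

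SAM1 had 25990.2 and 17697 normalized counts in shocked libraries, against 14155 and 12560.4 in unshocked libraries (0.69 ± 0.19; adjusted p = 0.0361), and its value without shocked replicate 1 was 0.41 (0.0853). SAM2, its paralog, had 31007 and 13768 in shocked libraries, against 22643 and 26903 in unshocked libraries, so that the shocked libraries lay on both sides of the unshocked ones. CYS3, of cysteine synthesis, had 15641 and 15139 in shocked libraries, against 12028 and 10695 in unshocked libraries. CYS3, SAM3 and CYS4 were higher by 0.44 ± 0.11, 0.39 ± 0.099 and 0.38 ± 0.11. MET3, MET10, MET16 and MET5, of sulfate reduction, stood at 0.18 ± 0.12, 0.077 ± 0.088, -0.17 ± 0.16 and 0.35 ± 0.12 and did not pass. These calls changed with the libraries used: without unshocked replicate 2 none of the 10 was called by limma (adjusted p = 0.0623 to 0.203), and without unshocked replicate 1 SUL1, CYS3 and SAM4 were. Without shocked replicate 1, 10 members were higher and 4 lower, of which 5 were among the 10 called with all libraries. Without shocked replicate 2, 6 were higher and 5 lower, of which 8 were among those 10. Reads of MET17 and LEU2 in these libraries are given above, and their part in these values was not tested.

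**Figure D5:**
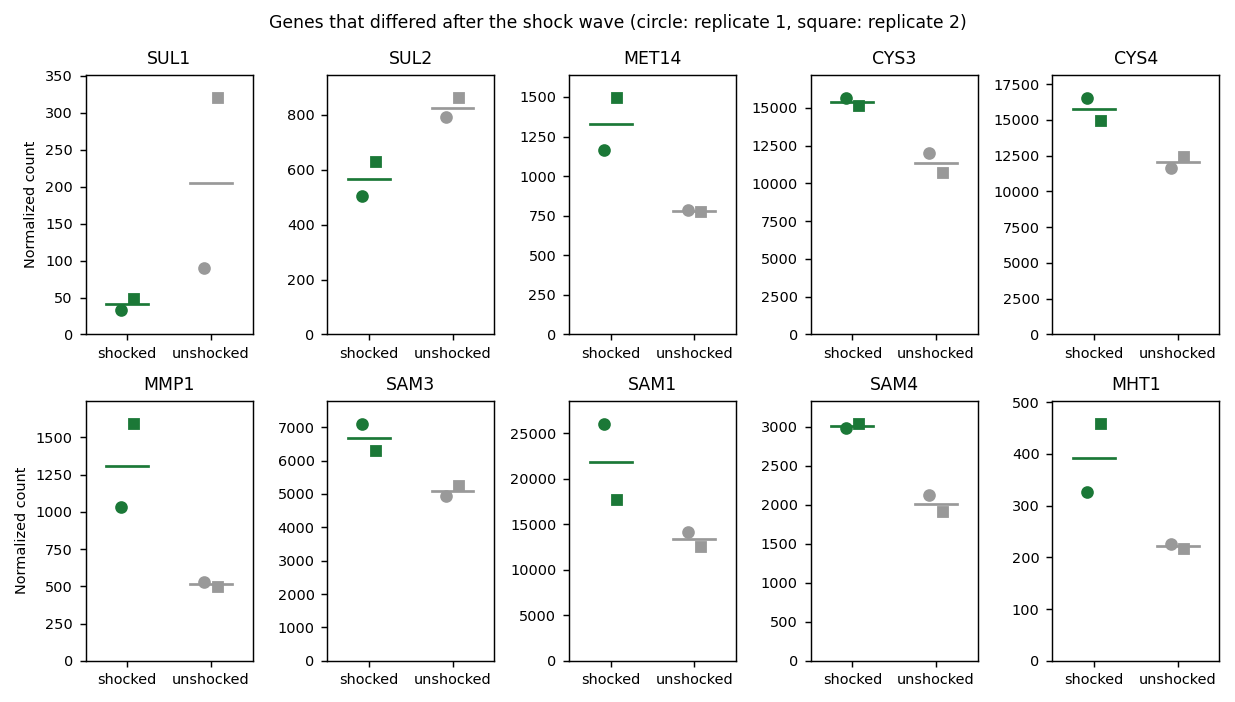
Normalized counts (y axis) of the 10 genes called between shocked WT (green) and unshocked WT (grey); circles are replicate 1, squares replicate 2 and bars the mean (n = 2). SUL1 and SUL2 lie lower in shocked libraries and the other 8 higher, and the unshocked libraries of SUL1 lie far apart.

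A further list of 30 genes of sulfur metabolism was counted for context, from cysteine and glutathione transport, methionine salvage and one-carbon supply. In the mutant 10 rose and 6 fell with perchlorate, beside 18% and 15.7% of all transcripts, and in the WT 4 rose and 7 fell, beside 14.3% and 12.1%. YCT1, a cysteine transporter gene, had 1949 and 2495 normalized counts in the perchlorate-grown mutant, against 265 and 177 untreated (3.34 ± 0.19), and 691 and 795 in perchlorate-grown WT, against 324 and 334 untreated (1.17 ± 0.15). PDC6, a minor pyruvate decarboxylase gene, rose by 2.60 ± 0.26 in the mutant and 2.50 ± 0.19 in the WT. HSU1 and SOA1, of sulfide use and inorganic sulfur transport, rose by 1.75 ± 0.13 and 1.42 ± 0.13 in the mutant. In the WT HSU1 rose by 0.41 ± 0.14, just under the threshold (adjusted p = 0.0498 by limma). SAH1, which breaks down S-adenosylhomocysteine, fell by 0.56 ± 0.11 in the mutant and 0.77 ± 0.14 in the WT, and the AdoMet decarboxylase gene SPE2 by 0.49 ± 0.09 and 0.68 ± 0.14. The salvage genes MDE1 and UTR4 fell in both strains and MRI1 in the WT. Between the untreated strains 1 was higher in the mutant (SEO1, at 1.57 ± 0.21) and 7 were lower, beside 11% and 11.6% of all transcripts. Among the 7 were HSU1 at -1.63 ± 0.13 and SHM2, a serine hydroxymethyltransferase gene, at -1.61 ± 0.17. In perchlorate 3 were higher (SEO1, YCT1 and SOA1) and 8 lower, beside 16.3% and 15.6%. The response was higher in the mutant for 6, beside 1.89% of all transcripts, YCT1 differing most at 2.17 ± 0.27. After the shock 6 were higher, a share close to the 18.1% of all transcripts, including the salvage and AdoMet genes MRI1 at 0.52 ± 0.083, MEU1 at 0.52 ± 0.082 and SPE2 at 0.52 ± 0.084.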

How the data were processed

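RNA from 12 yeast cultures, in 6 groups of 2, was measured by RNA sequencing; per the labels' protocols, RNA was extracted with hot phenol and libraries were made with a directional kit. Per the submitters' processing notes, FastQC, Trim Galore, HISAT2 and DESeq2 were used; no source used here gives the genome build, the read counter or its strand setting. The authors deposited 5 tables of normalized counts (a signal per transcript, counts divided by DESeq2 size factors), each compared only within itself, and 8 libraries stand in 2 of them. Columns of samples outside the series numbered 0. Dividing by the value of 1 read gave whole reads for 118932 of 118932 values (100.0%, within 0.01 reads), which gave library totals, RPM and RPKM on coding length. Counting error alone is covered by the read interval and the limit of 3 reads.

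Because the values are normalized, limma 3.58.1 (R 4.3.3, trended empirical Bayes) on log2(value + 1) was the main test, for transcripts with a mean of at least 10 in a table. Fold changes on this scale understate changes of low genes. P-values were adjusted by Benjamini-Hochberg over all transcripts tested. Alternatives were a pseudocount of 5, no filter, a minimum mean of 50, scaling to total reads, edgeR 4.0.16 and DESeq2 1.42.0 on the recovered reads, a replicate block and leaving out each library. The plan for the tests named edgeR as the main test if raw counts were found. Whole reads were recovered by division, but limma stayed the main test. The scripts were tested on simulated data. Identifiers were matched to RefSeq names by accession (5944) or locus tag (26), and coordinates and sequence are from R64, whose annotation holds all 5970 identifiers. All 36 members have 1 exon, and 0 have a near-identical copy (95% identity over 50% of the length). All members are named, with values per library for up to 8 with the largest changes per comparison, for MET17 and for examples of each role; sequences are those of the 5 largest changes with a motif, and MET17. The members and lists were chosen with earlier results of these data known.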

Additional observations from a re-analysis of the deposited data

Results flagged for a closer look

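The response to perchlorate differed between the strains, by the interaction test in limma, for 10 members. In all of them the log2 response, taken with its sign, was higher in the mutant. Of these, SAM3 fell in the WT, and MET6 and MET13 had no call there. The differences on the log2 scale were 0.97 for SUL2, 1.32 for MET3, 1.26 for MET14, 1.28 for MET5, 1.28 for MET10, 1.47 for MET2, 1.37 for MET6, 1.35 for MET13, 1.38 for SAM3 and 1.8 for JLP1. Their adjusted p-values ran from 0.00131 for MET13 to 0.0239 for SUL2. The untreated strains also differed in MET17, in mating type markers and in reads of LEU2, URA3 and TRP1. The part of these in the differences was not tested.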

How the results depend on the processing

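Over single members and alternatives, 87 values lost a call, 79 gained one and 2 turned round. The other 2349 kept their side of the threshold, and any sign change of a value called in neither fit is among them. The cause of these changes was not tested. In the untreated strains 3 members were higher in the mutant with total read scaling and 2 with DESeq2, which also called 221 transcripts in the interaction. In 500 bases before the start, a window chosen after seeing the data, CACGTG was in 22 members, CTGTGG in 23, AAACTGTGG in 12 and TGACTC in 14. Of all windows of that length 6.20%, 13.2%, 0.854% and 12.7% held them, in that order.

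Leaving out 1 library at a time, with the lone library of its group assumed to vary like the others, members lower in perchlorate-grown WT numbered 1 to 6 and all transcripts called 511 (without WT perchlorate replicate 1) to 2382 (without WT untreated replicate 1). Between untreated strains members higher numbered 1 to 2 and all called 757 to 1540. In perchlorate, members higher in the mutant numbered 10 to 13 and lower 1 to 4. After the shock, members higher numbered 0 to 10, lower 0 to 5 and all called 454 to 2067. In the interaction, members higher numbered 6 to 20, lower 0 to 1 and all called 72 to 406. STR3 after the shock ran from -0.52 to 0.40, the last without shocked replicate 1 (adjusted p = 0.0461 by limma). The MET17 interaction ran from -4.20 to 1.56, the last without WT perchlorate replicate 2, which held 51 reads (adjusted p = 0.0217 by limma).

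With the replicate block, 5 members were lower and 2453 transcripts called in perchlorate-grown WT, 3 members were higher and 2481 called between the untreated strains, and 7 members were lower and 3182 called between the strains in perchlorate. It also counted 21 members lower in the untreated mutant (16 without the block), 20 higher in the mutant in perchlorate (16), 13 in the interaction (10), 11 higher after the shock (8) and 30 higher in the perchlorate-grown mutant (28). Every member called without the block was also called with it. The labels do not say that replicate numbers mark shared cultures or days; deviations of same-numbered libraries correlated at 0.119 to 0.508. With 2 libraries a group, small differences can go undetected, and members at low counts (SUL1 and JLP1 untreated, MET32) carry more counting error.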
